A study of Homo sapiens with 4 samples.

Results

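The serpin family was described across 4 arrays of HuH7 cells, as the 32 genes whose symbol in the platform annotation starts with SERPIN, out of 18417 genes tested. A gene was taken where a probe listed it alone, and each of the 32 had 1 such probe. A further pseudogene whose symbol ends in P and a number was left out. SERPINA2 and SERPINA13P, which RefSeq calls transcribed pseudogenes, are among the 32. HuH7 is a human hepatocellular carcinoma cell line. In the MKL1/2 shRNA group (2 cultures), short hairpin RNAs (shRNAs) against MKL1 and MKL2 were expressed stably, and in the control shRNA group (2 cultures) a negative control hairpin was. Both groups were infected with lentivirus made in HEK293T cells from the pLKO.1 vector, selected with puromycin for 7 days, grown with 10% serum and kept below passage 10. The labels call the cultures biological replicates without naming separate infections or clones, so the p-values measure the spread between these arrays.

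Serpins are proteins of one fold, most of which inhibit proteases by offering an exposed loop as bait. The protease cuts the loop, stays bound to it, and is carried across the serpin and distorted, so that each inhibitor molecule is used once. Hepatocytes secrete most of the serpins of plasma, among them the main inhibitors of clotting, fibrinolysis, complement and leukocyte elastase, whereas most members of clade B lack a classical signal peptide and act in the cytosol. Some members inhibit no protease and carry hormones or chaperone collagen. MKL1 and MKL2, now named MRTFA and MRTFB, are cofactors of serum response factor (SRF) that couple actin dynamics to transcription.

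The values are log2 expression values, 1 per gene and array, and differences are MKL1/2 shRNA minus control shRNA, from a limma fit over all 18417 genes. The MKL1 probe, which also lists RBM15, read 6.81 and 6.91 in MKL1/2 shRNA cells, against 7.77 and 7.80 in control shRNA cells, which put the shRNA cells lower by a log2 difference of -0.93 (SE 0.096, and an adjusted p of 0.0404 in limma). The adjusted p was 0.0236 without MKL1/2 shRNA replicate 1 and 0.0145 without replicate 2. Without control shRNA replicate 1 or 2 the difference was -0.94 and -0.91, with adjusted p of 0.732 and 0.638, and no gene at all passed. Where an array is left out, its group has 1 array that is assumed to vary like the other group, whose 2 arrays give the residual spread. MRTFB read 6.84 and 7.11 in MKL1/2 shRNA cells, against 7.20 and 7.22 in control shRNA cells, with a limma adjusted p of 0.448. All 11 measured hepatocyte and hepatoma markers, such as ALB and AFP, lay above the median gene. So did 2 of 5 leukocyte, 2 of 4 cholangiocyte, 1 of 4 endothelial and 1 of 5 fibroblast and stellate markers. Of the 5 leukocyte markers, PTPRC read between 2.78 and 3.22, CD68 between 8.46 and 9.42 and LYZ between 12.02 and 12.25. The part in the results of markers outside the hepatocyte list was not tested. No background level is known for the arrays, so a low value cannot be called absent. In RNA of a whole culture, fewer cells of a kind and less RNA per cell cannot be told apart.

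By limma's adjusted p, with a threshold of 0.05, none of the 32 serpin genes was called in either direction. Over all genes 0.0923% passed as lower and 0.0814% as higher. At an unadjusted p under 0.05, 3 serpins were lower (SERPINA10, SERPINI1 and SERPINB5) and 3 were higher (SERPIND1, SERPINF2 and SERPINF1). That is 9.38% of the family in each direction, against 8.04% lower and 6.25% higher over all genes. These counts depend on the arrays. Leaving out an array, which leaves 1 in its group, changed them for the serpins and over all genes. Without MKL1/2 shRNA replicate 1 the family's median log2 difference was -0.06, against -0.01 over all genes. Without MKL1/2 shRNA replicate 2 it was 0.11, against 0.02 over all genes. The 2 arrays of one group lay wholly above the other's for 8 serpins in MKL1/2 shRNA cells and wholly below for 4, where 22.5% and 23.0% of all genes did so. With all 4 arrays the median log2 difference of the family was 0.05, against 0.01 over all genes. The differences ran from -0.45 for SERPINA10 to 0.60 for SERPIND1. For 31 of the 32 members the 95% interval of the difference stayed within a 2-fold change in both directions, and the exception was SERPINA3. An interval within 0.5 on the log2 scale was reached for 17 members (53.1%), against 72.6% of all genes.

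**Figure D1:**
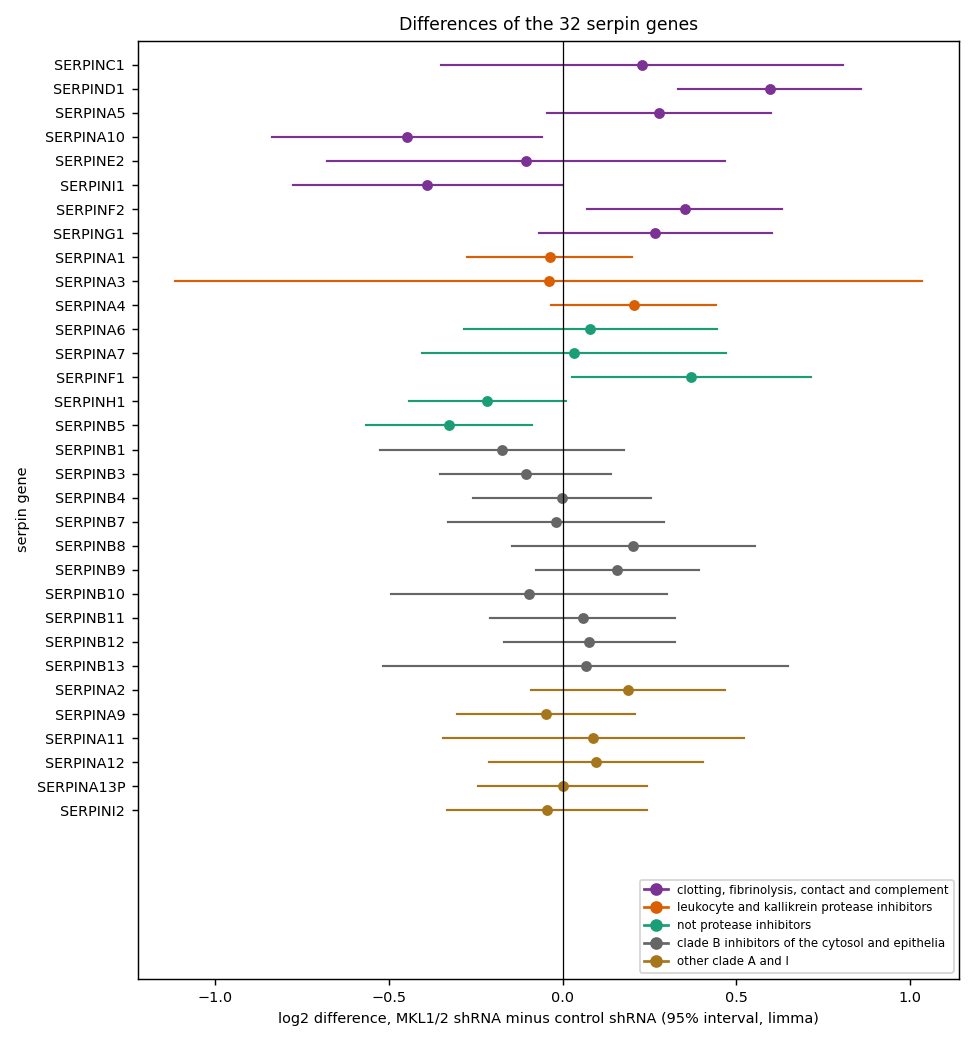
Log2 difference of each of the 32 serpin genes (horizontal axis, MKL1/2 shRNA minus control shRNA), with points for limma's estimate, bars for its 95% interval and colours for the role groups. The estimates run from -0.45 for SERPINA10 to 0.60 for SERPIND1, and the widest interval is that of SERPINA3.

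Among the 8 serpins that act on clotting, fibrinolysis, contact and complement proteases, 2 were higher and 2 lower at an unadjusted p under 0.05. That is 25% in each direction, against 6.25% higher and 8.04% lower over all genes. None of the 8 passed the adjusted threshold in limma. SERPIND1, heparin cofactor II, inhibits thrombin when bound to dermatan sulfate or heparin. It read 11.21 and 11.41 in MKL1/2 shRNA cells, against 10.70 and 10.73 in control shRNA cells. Both MKL1/2 shRNA arrays lay above both controls, at 0.50 above the control mean in replicate 1 and 0.70 above it in replicate 2. The fitted difference was 0.60 (SE 0.109, 95% interval 0.33 to 0.86), a factor of 1.51, with a limma adjusted p of 0.12. Without MKL1/2 shRNA replicate 1, SERPIND1 lay at 0.70 with an adjusted p of 0.0414 in limma, which sets 1 array against the spread of the 2 controls.

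SERPINF2, alpha-2-antiplasmin, is the main inhibitor of plasmin in plasma. It read 9.92 and 10.01 in MKL1/2 shRNA cells, against 9.50 and 9.73 in control shRNA cells. The groups did not overlap, and the MKL1/2 shRNA arrays differed from each other by less (0.09) than the controls did (0.23). The difference was 0.35 (SE 0.116, limma adjusted p = 0.266). SERPING1, the C1 inhibitor, blocks the complement proteases C1r and C1s as well as plasma kallikrein and factors of the contact system. Its values were 11.70 and 11.44 in MKL1/2 shRNA cells, against 11.18 and 11.42 in control shRNA cells. The lower MKL1/2 shRNA array was 0.01 above the higher control, and the difference of 0.27 (SE 0.138) had a limma adjusted p of 0.442.

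SERPINA5, the protein C inhibitor, acts on activated protein C and other proteases. It read 9.65 and 9.98 in MKL1/2 shRNA cells, against 9.55 and 9.53 in control shRNA cells. The groups did not overlap, and replicate 2 accounted for most of the difference of 0.28 (SE 0.133, limma adjusted p = 0.408). SERPINC1, antithrombin, is the main inhibitor of thrombin and factor Xa. Its values were 9.61 and 8.84 in MKL1/2 shRNA cells, against 9.01 and 8.98 in control shRNA cells. The 2 MKL1/2 shRNA arrays lay on opposite sides of the controls. The difference was 0.23 (SE 0.237, limma adjusted p = 0.731), and it was 0.61 without MKL1/2 shRNA replicate 2 (adjusted p = 0.0381) and -0.15 without replicate 1 (adjusted p = 0.46).

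SERPINA10, the protein Z-dependent protease inhibitor, inhibits factor Xa together with protein Z. It read 6.18 and 5.73 in MKL1/2 shRNA cells, against 6.38 and 6.43 in control shRNA cells. Both MKL1/2 shRNA arrays lay below both controls, at 0.22 below the control mean in replicate 1 and 0.68 below it in replicate 2. The difference was -0.45 (SE 0.16, 95% interval -0.84 to -0.06), with a limma adjusted p of 0.291. Without MKL1/2 shRNA replicate 1 it was -0.68 with an adjusted p of 0.0462 in limma, again with the spread taken from the 2 controls (SE 0.096). The gene of its cofactor, PROZ, read 6.63 and 6.71 in MKL1/2 shRNA cells, against 6.49 and 6.58 in control shRNA cells (limma adjusted p = 0.596). F10, the gene of the protease, read 8.61 and 8.30 in MKL1/2 shRNA cells, against 8.36 and 8.19 in control shRNA cells (limma adjusted p = 0.612).

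SERPINI1, neuroserpin, inhibits tissue plasminogen activator and is known mainly from neurons. It read 6.41 and 6.04 in MKL1/2 shRNA cells, against 6.48 and 6.75 in control shRNA cells. The groups did not overlap, but replicate 1 of the MKL1/2 shRNA cells was only 0.07 below the nearest control. The difference was -0.39 (SE 0.159, limma adjusted p = 0.346). SERPINE2, protease nexin-1, inhibits thrombin and urokinase at cell surfaces. Its values were 8.39 and 7.63 in MKL1/2 shRNA cells, against 8.13 and 8.10 in control shRNA cells. As with SERPINC1, the MKL1/2 shRNA arrays lay on both sides of the controls, with a difference of -0.11 (SE 0.235, limma adjusted p = 0.892).

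**Figure D2:**
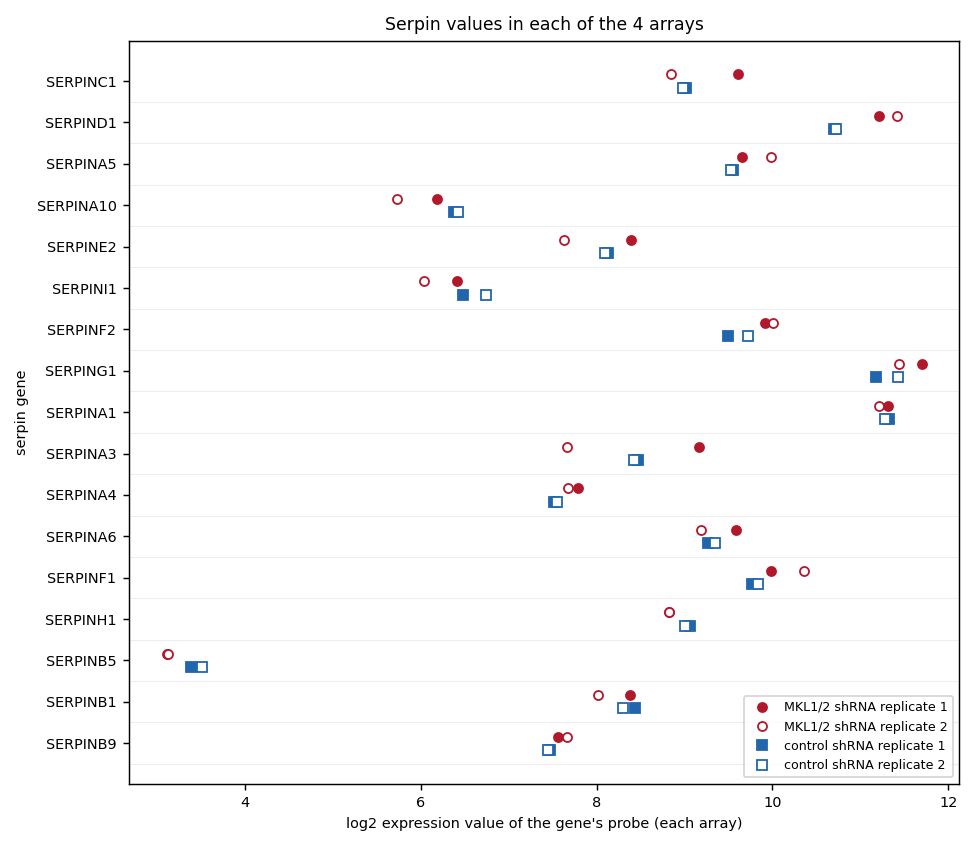
Log2 value in each array (horizontal axis) of the 17 serpin genes described array by array, with circles for MKL1/2 shRNA and squares for control shRNA, filled for replicate 1 and open for replicate 2. Positions are to be read within a gene, since values of different probes are not comparable. The controls of SERPINC1, SERPINE2, SERPINA3 and SERPINA6 lie between the 2 MKL1/2 shRNA arrays.

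The 3 inhibitors of leukocyte and kallikrein proteases did not pass in limma. SERPINA1, alpha-1-antitrypsin, protects the lung from neutrophil elastase and is a major product of hepatocytes. It read 11.32 and 11.21 in MKL1/2 shRNA cells, against 11.32 and 11.28 in control shRNA cells. The groups overlapped, and the difference of -0.04 had a 95% interval from -0.27 to 0.20 (limma adjusted p = 0.911). SERPINA4, kallistatin, inhibits tissue kallikrein. Its values of 7.79 and 7.68 in MKL1/2 shRNA cells lay above those of 7.51 and 7.55 in control shRNA cells, a difference of 0.21 (SE 0.098, limma adjusted p = 0.407). KLK1, which encodes tissue kallikrein, read 6.02 and 5.84 in MKL1/2 shRNA cells, against 5.96 and 5.80 in control shRNA cells.

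SERPINA3, alpha-1-antichymotrypsin, is an acute-phase inhibitor of cathepsin G and chymase. It read 9.17 and 7.66 in MKL1/2 shRNA cells, against 8.48 and 8.43 in control shRNA cells. Replicate 1 of the MKL1/2 shRNA cells was 0.72 above the control mean and replicate 2 was 0.80 below it, a 2.85-fold difference between arrays of one group. A gap of that size or more between the MKL1/2 shRNA arrays was found for 0.152% of all genes. With both arrays the difference was -0.04 (SE 0.441, limma adjusted p = 0.981). With either MKL1/2 shRNA array alone, and the spread taken from the 2 controls, the difference of SERPINA3 had opposite signs, at 0.72 without MKL1/2 shRNA replicate 2 (adjusted p = 0.0295) and at -0.80 without replicate 1 (adjusted p = 0.031 in limma). The SE was then 0.096, since the gap between the MKL1/2 shRNA arrays no longer entered it. The control arrays differed from each other by 0.05.

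Of the 5 members grouped here as not protease inhibitors, SERPINF1 was higher and SERPINB5 lower at an unadjusted p under 0.05. That is 20% of the 5 in each direction, against 6.25% higher and 8.04% lower over all genes. SERPINF1, pigment epithelium-derived factor, is a secreted protein that restrains the growth of blood vessels. It read 9.98 and 10.35 in MKL1/2 shRNA cells, against 9.76 and 9.83 in control shRNA cells. Both MKL1/2 shRNA arrays lay above both controls, and the difference was 0.37 (SE 0.141, limma adjusted p = 0.318). PNPLA2, which encodes a lipase known to bind this factor, read 8.99 and 9.06 in MKL1/2 shRNA cells, against 8.61 and 8.73 in control shRNA cells (difference 0.35, limma adjusted p = 0.215).

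SERPINH1, the collagen chaperone HSP47 of the endoplasmic reticulum, read 8.82 and 8.83 in MKL1/2 shRNA cells, against 9.07 and 9.01 in control shRNA cells. The groups did not overlap and the MKL1/2 shRNA arrays differed by only 0.01. The difference of -0.22 (SE 0.093) had a limma adjusted p of 0.368. Among its client collagens, COL1A2 read 6.32 and 6.80 in MKL1/2 shRNA cells, against 7.68 and 7.56 in control shRNA cells (difference -1.06, limma adjusted p = 0.0964). COL1A1 read 6.60 and 7.00 in MKL1/2 shRNA cells, against 6.76 and 6.83 in control shRNA cells, so that the groups overlapped for the other chain of type I collagen.

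SERPINA6, the cortisol carrier corticosteroid-binding globulin, read 9.59 and 9.18 in MKL1/2 shRNA cells, against 9.26 and 9.35 in control shRNA cells, on both sides of the controls (limma adjusted p = 0.867). SERPINA7, thyroxine-binding globulin, had values from 3.31 to 3.85 in MKL1/2 shRNA cells, against 3.52 to 3.58 in control shRNA cells. SERPINB5, maspin, known as a suppressor of tumour cell invasion, read 3.11 and 3.13 in MKL1/2 shRNA cells, against 3.39 and 3.51 in control shRNA cells. The groups did not overlap, with a difference of -0.33 (SE 0.098, limma adjusted p = 0.229). All 4 values of SERPINB5 lay under the first quartile of the array, which ran from 3.99 to 4.02, so no factor is given.

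In the group of 10 clade B members other than SERPINB5, none was lower or higher at an unadjusted p under 0.05. Over all genes 8.04% were lower and 6.25% higher. The median difference of the 10 was 0.03. SERPINB9, which protects cells from granzyme B, read 7.56 and 7.66 in MKL1/2 shRNA cells, against 7.46 and 7.44 in control shRNA cells. It was the 1 gene of this group without overlap (10%, against 45.5% of all genes), with a difference of 0.16 (SE 0.097, limma adjusted p = 0.519). SERPINB1, an inhibitor of neutrophil elastase and cathepsin G, read 8.38 and 8.01 in MKL1/2 shRNA cells, against 8.43 and 8.30 in control shRNA cells (difference -0.17, limma adjusted p = 0.652). Replicate 1 of the MKL1/2 shRNA cells lay between the controls and replicate 2 below them.

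SERPINB8, which is known to inhibit furin in vitro, read 4.66 and 4.29 in MKL1/2 shRNA cells, against 4.33 and 4.21 in control shRNA cells. FURIN itself read 8.90 and 9.29 in MKL1/2 shRNA cells, against 9.66 and 9.36 in control shRNA cells (difference -0.41, limma adjusted p = 0.342). The other 7 clade B members of this group, SERPINB3, SERPINB4, SERPINB7, SERPINB10, SERPINB11, SERPINB12 and SERPINB13, are known mainly from epithelia, skin or blood-forming cells. Their differences ran from -0.11 for SERPINB3 to 0.08 for SERPINB12, and their values from 2.34 to 3.88. SERPINB13, an inhibitor of cathepsins L and K, was the least even of them, at 3.88 and 3.16 in MKL1/2 shRNA cells, against 3.31 and 3.59 in control shRNA cells. SERPINB3 and SERPINB4 are near-identical paralogs that a probe could not fully separate.

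The remaining 6 members of clades A and I had differences from -0.05 for SERPINA9, a gene of germinal centre B cells, to 0.19 for SERPINA2. SERPINA2 is a pseudogene relative of SERPINA1. It read 4.80 and 4.68 in MKL1/2 shRNA cells, against 4.45 and 4.66 in control shRNA cells (limma adjusted p = 0.516). SERPINA2 was the 1 case of the 6 without overlap (16.7%, against 45.5% of all genes). SERPINA11 read 6.40 and 5.86 in MKL1/2 shRNA cells, against 6.03 and 6.05 in control shRNA cells, again on both sides of the controls. SERPINA12, the adipokine vaspin, inhibits the protease KLK7 and had a difference of 0.10 (SE 0.126). KLK7 read 5.29 and 5.11 in MKL1/2 shRNA cells, against 4.88 and 4.97 in control shRNA cells (limma adjusted p = 0.33). SERPINI2 and SERPINA13P had limma adjusted p-values of 0.913 and 1.

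The spread between replicates was wider in the MKL1/2 shRNA cells. The arrays of that group differed by more than 0.5 on the log2 scale for 6 of the 32 serpins (18.8%), against 0 of 32 between the control arrays. Over all genes the shares were 5.38% between MKL1/2 shRNA arrays and 0.776% between control arrays. The 6 were SERPINA3, SERPINC1, SERPINE2, SERPINB13, SERPINA7 and SERPINA11, and MKL1/2 shRNA replicate 1 held the higher value for each. All values of SERPINB13 and SERPINA7 lay under the first quartile of the array, which ran from 3.99 to 4.02. The SD of the gap over the 32 members was 0.396 between MKL1/2 shRNA arrays and 0.162 between controls, against 0.265 and 0.154 over all genes. The family's median lay 0.11 above the control mean in MKL1/2 shRNA replicate 1 and 0.06 below it in replicate 2. Over all 32 members replicate 1 was the higher array for 19 (59.4%, against 52.2% of all genes) and replicate 2 for 13, among them SERPIND1, SERPINA5, SERPINF1, SERPINF2 and SERPINB9.

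**Figure D3:**
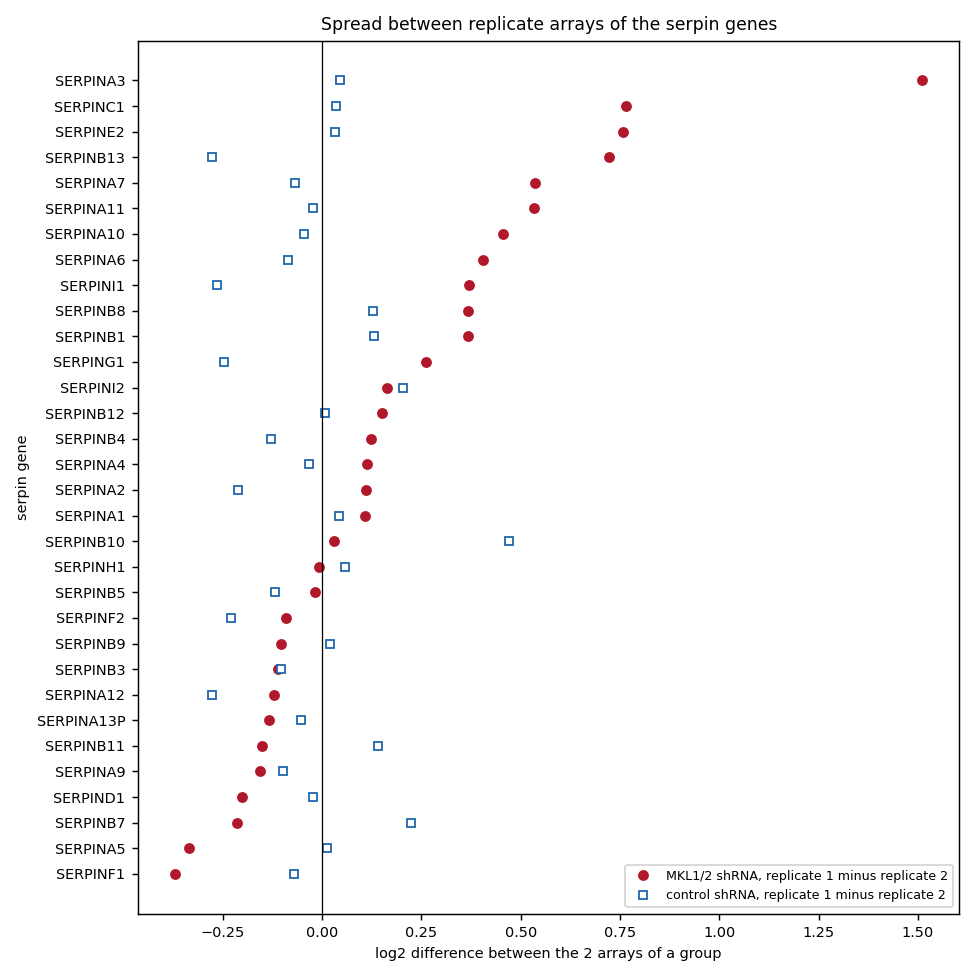
Log2 difference between the arrays of a group, replicate 1 minus replicate 2 (horizontal axis), for each of the 32 serpin genes, with red circles for MKL1/2 shRNA and blue squares for control shRNA. SERPINA3 stands at 1.51 between the MKL1/2 shRNA arrays and at 0.05 between the controls, and 6 red circles lie beyond 0.5 while no blue square does.

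Many serpin genes lie side by side in the genome, and their differences are given here in gene order. Several were smaller than their SE, such as -0.001 for SERPINB4 (SE 0.105). A count of signs therefore cannot show whether neighbours differ in direction. Of the 11 on chromosome 14, in RefSeq's order from SERPINA10 through SERPINA1 to SERPINA13P, 7 had a positive and 4 a negative difference. SERPINA13P counts as positive at 5e-07 (SE 0.1). SERPINA10 stands at one end of the row at -0.45, and the next gene, SERPINA6, was at 0.08 (SE 0.15). SERPINA4 and SERPINA5 are adjacent and lay at 0.21 and 0.28, while SERPINA3 beyond them was at -0.04 with the widest error. Of the 9 measured on chromosome 18, all of clade B, 4 were positive and 5 negative, from -0.33 for SERPINB5 to 0.20 for SERPINB8. The array values of these 9 were low, from 2.34 to 4.66. SERPINF2 and SERPINF1, adjacent coding genes on chromosome 17, had similar differences of 0.35 and 0.37. On chromosome 6, SERPINB1 and SERPINB9 had differences of opposite sign. On chromosome 3, SERPINI2 and SERPINI1 were both negative, at -0.04 (SE 0.118) and -0.39 (SE 0.159).

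**Figure D4:**
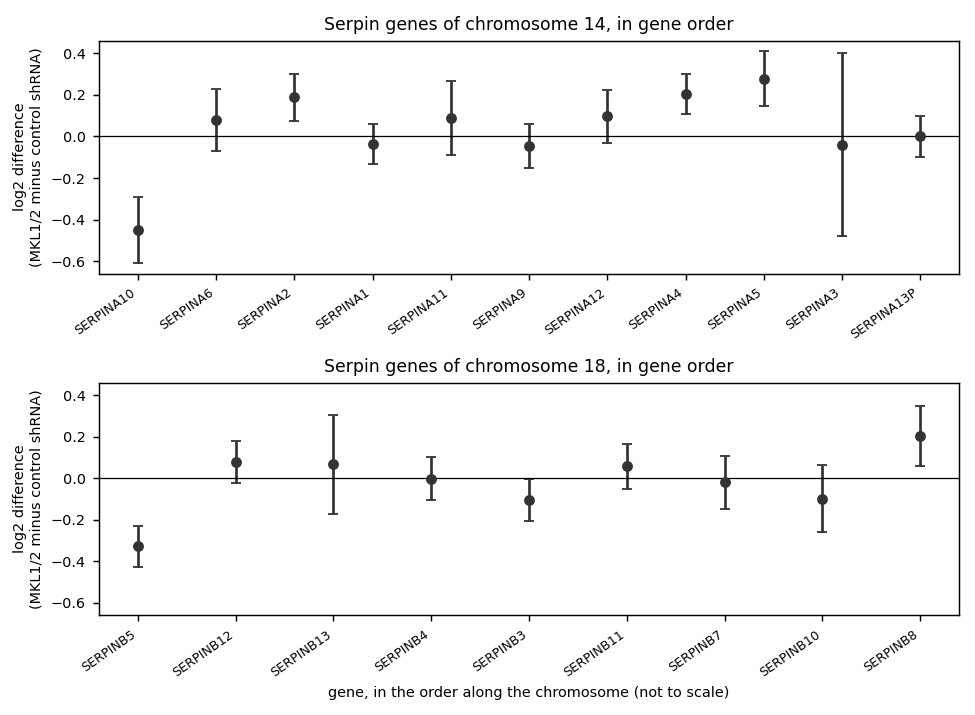
Log2 difference (vertical axis, MKL1/2 shRNA minus control shRNA, bars are limma's standard errors) of the serpin genes of chromosomes 14 and 18, placed in gene order and not to scale. SERPINA10 at -0.45 and SERPINB5 at -0.33 are the lowest in their rows, and the genes next to them lie at 0.08.

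Promoter sequence was examined because MKL1 and MKL2 act through SRF, which binds the CArG box. RefSeq windows of GRCh38.p14, from 250 bases before to 50 after a start site, were found for 24 of the 32 serpins (34 windows, since some genes have several). The windows of 4 of the 6 genes at an unadjusted p under 0.05 are shown 5′ to 3′ on the strand of the gene, with capitals for a match to any of 7 motifs searched on both strands. SERPIND1 spans chr22:20773863-20774162 on the plus strand, and SERPINI1 spans chr3:167735471-167735770 on the plus strand. SERPINA10 spans chr14:94293219-94293518 on the minus strand, the farther upstream of its 2 windows, and SERPINB5 spans chr18:63476708-63477007 on the plus strand.
SERPIND1: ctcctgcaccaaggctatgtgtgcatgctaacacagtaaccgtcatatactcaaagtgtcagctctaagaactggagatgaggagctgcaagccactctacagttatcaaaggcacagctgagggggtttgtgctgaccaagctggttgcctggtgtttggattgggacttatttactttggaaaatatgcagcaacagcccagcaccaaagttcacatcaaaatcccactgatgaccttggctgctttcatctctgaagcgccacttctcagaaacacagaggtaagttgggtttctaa
SERPINA10: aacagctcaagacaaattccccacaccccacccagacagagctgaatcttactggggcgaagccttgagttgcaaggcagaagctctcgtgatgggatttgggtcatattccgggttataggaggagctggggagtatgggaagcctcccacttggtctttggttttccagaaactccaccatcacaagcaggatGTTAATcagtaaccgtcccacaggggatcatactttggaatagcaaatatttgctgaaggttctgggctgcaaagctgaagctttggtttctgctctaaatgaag
SERPINI1: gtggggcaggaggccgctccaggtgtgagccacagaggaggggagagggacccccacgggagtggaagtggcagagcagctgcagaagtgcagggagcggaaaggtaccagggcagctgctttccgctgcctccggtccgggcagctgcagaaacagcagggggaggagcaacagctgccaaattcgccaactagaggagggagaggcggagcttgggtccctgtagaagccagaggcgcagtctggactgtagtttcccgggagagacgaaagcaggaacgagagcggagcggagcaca
SERPINB5: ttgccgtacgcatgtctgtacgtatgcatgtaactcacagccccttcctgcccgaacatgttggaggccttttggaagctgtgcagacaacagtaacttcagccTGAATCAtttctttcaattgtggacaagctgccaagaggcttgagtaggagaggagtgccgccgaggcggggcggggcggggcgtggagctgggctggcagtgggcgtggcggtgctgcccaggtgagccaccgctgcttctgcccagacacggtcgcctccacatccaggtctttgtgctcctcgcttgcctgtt

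No CArG box was found in the 34 serpin windows, and 1.29% of all 35116 windows hold one. In the sequences shown, SERPIND1 and SERPINI1 matched none of the 7 motifs. The capitals in SERPINA10 are the HNF1 core (GTTAAT), the core of the element bound by hepatocyte nuclear factor 1. It occurred in 7 of 34 serpin windows (20.6%) and in 6.88% of all windows. The 7 belong to SERPINA1, SERPINA4, SERPINA6, SERPINA7, SERPINA10, SERPINB12 and SERPINI2, whose log2 differences ran from -0.45 to 0.21. The capitals in SERPINB5, TGAATCA, match TGANTCA, a loosened form of the AP-1 site that lets any base stand in the middle. The stricter AP-1 site has C or G there, so the letters in SERPINB5 are not that site. TGANTCA was present in 20.6% of serpin windows and 7.71% of all, and shares of the stricter site were not counted. The letters in SERPINB5 match TGANTCA on both strands at the same place. The TATA box (TATAAA) was in 26.5% of serpin windows and 11.5% of all. The TEAD core (GGAATG) was in 14.7% of serpin windows and 14.03% of all, and the E-box (CACGTG) in 2.94% and 7.26%. The SMAD element (GTCTAGAC) was in 0 of 34 and in 0.202% of all. A match describes letters in a window and is not evidence of binding.

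Of 38 proteases that serpins inhibit or are known to act beside, HABP2 and KLKB1 rose in limma with all 4 arrays and none fell. Over all genes 0.0814% passed the adjusted threshold as higher and 0.0923% as lower. At an unadjusted p under 0.05 there were 9 higher proteases (23.7%, against 6.25% of all genes) and 2 lower (5.26%, against 8.04% of all genes). With 1 array left out these counts and those past the adjusted threshold changed, for the proteases and over all genes. The listed proteases had a median log2 difference of 0.09, and all genes one of 0.01. HABP2, a plasma protease that activates factor VII and urokinase precursors, read 9.18 and 9.03 in MKL1/2 shRNA cells, against 7.64 and 7.63 in control shRNA cells (adjusted p = 0.0159 in limma). KLKB1, plasma prekallikrein, is a target of SERPING1 and read 5.40 and 5.16 in MKL1/2 shRNA cells, against 4.06 and 4.16 in control shRNA cells (adjusted p = 0.0382 in limma). Without MKL1/2 shRNA replicate 1 or 2 the limma adjusted p was 0.00713 and 0.00585 for HABP2, and 0.0176 and 0.00992 for KLKB1. Without control shRNA replicate 1 HABP2 lay at 1.48 (limma adjusted p = 0.464) and KLKB1 at 1.13 (adjusted p = 0.696), and without control shRNA replicate 2 at 1.47 (adjusted p = 0.382) and 1.22 (adjusted p = 0.529).

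Other targets of SERPING1 had positive differences that did not pass. C1R read 6.97 and 6.41 in MKL1/2 shRNA cells, against 5.88 and 6.001 in control shRNA cells (difference 0.75, limma adjusted p = 0.187). F11, the gene of clotting factor XI, lay at 0.61 (SE 0.168) and F12 at 0.28 (SE 0.122). SERPING1 itself lay at 0.27, and differences between the inhibitor and its proteases were not tested.

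PLAU, the gene of urokinase, read 7.88 and 8.06 in MKL1/2 shRNA cells, against 7.19 and 7.13 in control shRNA cells (difference 0.81, limma adjusted p = 0.0688). HPN, the gene of the membrane protease hepsin, lay at 0.51 (SE 0.132, limma adjusted p = 0.193). PLG, the gene of plasminogen, is the precursor of the protease that SERPINF2 inhibits. It read 8.44 and 7.31 in MKL1/2 shRNA cells, against 6.89 and 7.07 in control shRNA cells. The groups did not overlap, but the difference of 0.90 (SE 0.338) came mainly from replicate 1 (limma adjusted p = 0.316). F2, which encodes prothrombin, the precursor of the target of SERPINC1 and SERPIND1, read 8.96 and 7.96 in MKL1/2 shRNA cells, against 8.82 and 8.73 in control shRNA cells (limma adjusted p = 0.706). The lower proteases at an unadjusted p under 0.05 were FURIN and CTSV, the gene of cathepsin V, which lay at -0.40 (SE 0.117).

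**Figure D5:**
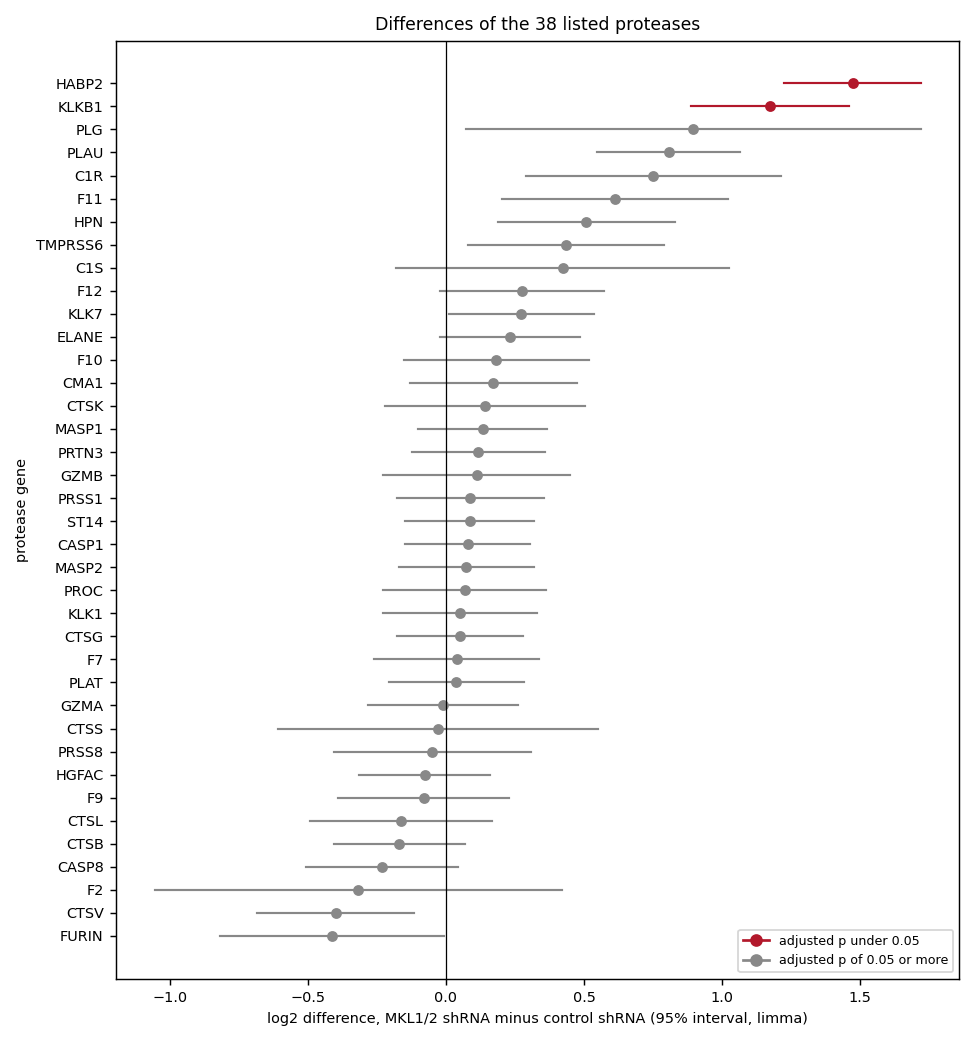
Log2 difference of the 38 listed proteases (horizontal axis, MKL1/2 shRNA minus control shRNA), with limma's 95% interval and red for an adjusted p under 0.05. HABP2 at 1.47 and KLKB1 at 1.17 are the red points, at the top, and FURIN at -0.41 is the lowest.

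Cofactors and receptors, folding and export factors and known regulators of serpin genes gave 1 call between them with all 4 arrays. Over all genes 0.0923% were called lower and 0.0814% higher. Of 19 measured cofactors, ligands and receptors none passed in limma, and 2 were higher at an unadjusted p under 0.05 (10.5%, against 6.25% of all genes), PNPLA2 and the sorting receptor SORL1 (0.50, SE 0.1, limma adjusted p = 0.134). That count depended on which array was left out, as did the count over all genes. LRP1, the receptor that clears serpin-protease complexes, lay at 0.06 (SE 0.1), and VTN, the gene of vitronectin, at -0.04 (SE 0.161). Of 27 folding and export genes none passed in limma, with 2 higher and 2 lower at an unadjusted p under 0.05 (7.41% each, against 6.25% and 8.04% of all genes). These counts also depended on which array was left out. With all 4 arrays the higher ones were the cargo receptor SURF4 (0.33, SE 0.096) and EDEM1 (0.32, SE 0.094), which sends misfolded glycoproteins to degradation. The lower ones were COL1A2 and the disulfide isomerase PDIA4 (-0.28, SE 0.096).

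Of 25 regulators, TGFB1, a cytokine that induces several serpin genes, fell in limma, where 0.0923% of all genes passed as lower. It read 7.46 and 7.89 in MKL1/2 shRNA cells, against 9.50 and 9.72 in control shRNA cells (adjusted p = 0.0217 in limma). The limma adjusted p was 0.00894 and 0.00585 without MKL1/2 shRNA replicates 1 and 2, and without control shRNA replicate 1 or 2 TGFB1 lay at -2.05 and -1.82 with limma adjusted p of 0.464 and 0.41. SRF, SP1, FOXA1 and SMAD3 were lower at an unadjusted p under 0.05, from -0.44 for SRF to -0.26 for FOXA1, and none of the 25 was higher at that level. With TGFB1 these are 5 lower genes (20%, against 8.04% of all genes). The count of lower regulators depended on which array was left out, as did the count over all genes. Quantile normalization and the variance trend each gave 2 higher regulators at an unadjusted p under 0.05. STAT3, which drives acute-phase genes, read 9.45 and 9.30 in MKL1/2 shRNA cells, against 9.17 and 9.08 in control shRNA cells (limma adjusted p = 0.359). The liver factor CEBPA lay at -0.12 (SE 0.097).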

How the data were processed

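Biotin-labelled cDNA was hybridised to 1-colour whole-transcript arrays, 1 per sample. The authors deposited log2 expression values for 33297 probes, and the submitters' processing notes name Partek. How background was corrected and arrays normalized is not given in the sources used here. That the scale is log2 follows from the range, 1.03 to 13.65. Genes were named from the platform annotation through Entrez identifiers in RefSeq (19429 of 19460 single-gene probes found), and the probe of highest mean stood for a gene. Differences came from limma 3.58.1 (R 4.3.3; eBayes after lmFit, two-sided, no block), fitted to 18417 genes with Benjamini-Hochberg adjustment, 2 residual and 4.12 prior degrees of freedom, and the fit was tested on simulated data. Array values are given for serpins with an unadjusted p under 0.05 or a mean above the median of all genes (6.31), and up to 6 companion genes per list, those of smallest p among the ones at an unadjusted p under 0.05, are named, some by their difference alone. Other genes given with values were chosen after these were seen. The members and lists were chosen with earlier results of these data known. Alternatives left out the dimmest 40% of genes or each array, changed the normalization, probe rule or variance model, or added the replicate number as a block. The labels tie no replicate number to a shared day, so arrays were not paired. At most 174 probes had identical values in any pair of arrays.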

Additional observations from a re-analysis of the deposited data

How the results depend on the processing

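Under the alternatives that kept all 4 arrays, none of the 32 serpins passed an adjusted p of 0.05 in limma. The serpin counts at both thresholds depended on which array was left out, as did those over all genes. With 1 array left out, the family's median difference ran from -0.06 to 0.11. Without the dimmest 40% of genes 1 serpin, SERPINA10, was lower at an unadjusted p under 0.05, against 3 with all genes. SERPINB5 was then not tested and SERPINI1 had an unadjusted p of 0.0501 in limma. Of the 17 members with an unadjusted p under 0.05 or a mean above the median of all genes, 11 kept their direction under each alternative that could be run, which were 10 for each except SERPINB5, not tested without the dimmest 40% (9). The other members were not followed one by one. The other 6 changed direction when an MKL1/2 shRNA array was left out, with ranges over the left-out arrays of -0.15 to 0.61 for SERPINC1, -0.48 to 0.27 for SERPINE2, -0.0904 to 0.0169 for SERPINA1, -0.80 to 0.72 for SERPINA3, -0.12 to 0.28 for SERPINA6 and -0.36 to 0.00886 for SERPINB1. Over all genes, 17 lower and 15 higher passed with all arrays. These were 27 and 19 without the dimmest 40%, 27 and 21 with quantile normalization, 0 and 0 without control replicate 1 or 2 (866 and 1219 genes at an unadjusted p under 0.05), 135 and 164 without MKL1/2 shRNA replicate 1, and 442 and 339 without replicate 2. With the replicate number as a block, 38 lower and 55 higher genes passed, but 0 serpins, and 2 serpins were lower and 3 higher at an unadjusted p under 0.05. Deviations of same-numbered arrays had a correlation of -0.07 over genes. Leaving out the members RefSeq calls pseudogenes, an alternative added after seeing the data, left the counts and median as they were. The number of arrays limits the precision, and no background level was known for dim genes.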

Other observations

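The gap of SERPINA3 between the MKL1/2 shRNA arrays ranked 28 among 18417 genes. Of the 27 genes with a larger gap, 15 had the higher value in MKL1/2 shRNA replicate 1 and 12 in replicate 2. Those given here were chosen after their values were seen. MBL2, the mannose-binding lectin of the complement lectin pathway, read 8.19 and 6.66 in MKL1/2 shRNA cells, against 5.60 and 5.61 in control shRNA cells. AADAC, a microsomal deacetylase, read 8.08 and 5.99 in MKL1/2 shRNA cells, against 6.28 and 5.87 in control shRNA cells. PI3, the gene of elafin, an elastase inhibitor outside the serpin family, read 8.72 and 7.04 in MKL1/2 shRNA cells, against 7.12 and 7.48 in control shRNA cells. The mucin gene MUC13 had the largest gap of all genes tested, with 8.44 and 5.29 in MKL1/2 shRNA cells, against 6.05 and 5.96 in control shRNA cells. The metallothionein genes MT1X and MT1M, the plasma protein gene AFM and the complement gene C7 were among those with the higher value in MKL1/2 shRNA replicate 2. AFM read 4.86 and 6.70 in MKL1/2 shRNA cells, against 4.05 and 4.17 in control shRNA cells. MT1X read 9.99 and 12.16 in MKL1/2 shRNA cells, against 10.86 and 11.05 in control shRNA cells.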
